A study of Bos taurus with 3 samples.

Results

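The droplet libraries of the newborn rumen held 1446 epithelial barcodes with more than 4000 detected genes, which fell above the upper gene limit that the study's own quality filter set against doublets. They were chosen from the 3 count matrices by 4 conditions. Each barcode had to show more than 4000 detected genes, at most 40% of its unique molecular identifiers (UMIs) in the 13 mitochondrial coding genes, at least 10 UMIs of KRT5, KRT14 and KRT15 together per 10000 UMIs, and no UMI of PTPRC, PECAM1 or COL3A1, which mark immune cells, endothelial cells and fibroblasts. Of 31228 barcodes in all, 766 met the rule in newborn calf 1, 158 in calf 2 and 522 in calf 3. They are called high-gene barcodes here and were compared within each calf with the 21884 barcodes of 500 to 4000 genes that met the same other conditions, 4637, 9122 and 8125 of them in calves 1, 2 and 3.

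All 3 animals were newborn Holstein dairy calves, with the rumen taken 1 day after birth from the ventral sac, and each calf gave 1 library. The tissue had its outer muscle stripped and was dissociated with enzymes that included trypsin, collagenases, dispase and hyaluronidase, together with EDTA and DNase. Adult libraries were not analysed here. The libraries held 82263092, 89803289 and 106145091 UMIs in calves 1, 2 and 3.

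The rumen is lined by a stratified squamous epithelium. Basal keratinocytes, held to the basement membrane by hemidesmosomes, divide and express KRT5, KRT14 and KRT15; their daughters move up into a spinous layer, where adhesion and barrier genes are switched on, and then into granule and cornified layers. The tissue is also known for taking up short-chain fatty acids and for making ketone bodies from them. The number of genes detected in a droplet depends on how much RNA it holds and how evenly that RNA is spread over genes, and a droplet with a pair of cells also yields more genes, which is why upper gene limits are in common use.

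Among the 1621 barcodes above 4000 genes, 797 came from calf 1, 187 from calf 2 and 637 from calf 3, and all of them met the mitochondrial limit. The keratin condition removed 47 of these, which left 1574. Another 128 were removed for a UMI of PTPRC (21 barcodes), PECAM1 (48) or COL3A1 (70), some for more than one. This last condition took 2.05% of the barcodes left in calf 1, 12.2% in calf 2 and 14.7% in calf 3. High-gene barcodes made up 14.2%, 1.70% and 6.04% of the epithelial barcodes of at least 500 genes in calves 1, 2 and 3, so the calf with the fewest barcodes held the highest share. Libraries shared 21 (calves 1 and 2), 29 (calves 1 and 3) and 37 (calves 2 and 3) cell barcode sequences, and no high-gene barcode was one in both libraries.

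**Figure D1:**
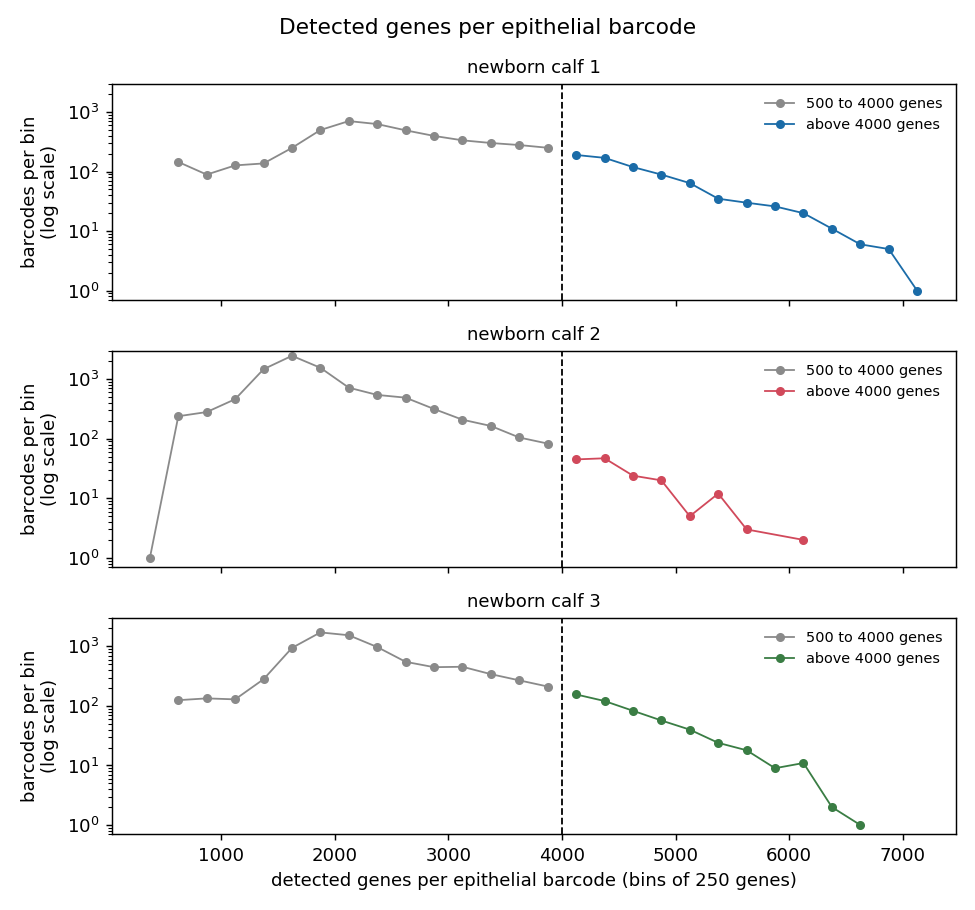
Number of epithelial barcodes (vertical axis, log scale) in bins of 250 detected genes (horizontal axis), 1 panel per newborn calf, with empty bins not drawn and a dashed line at 4000 genes. Counts fall past the line in each panel, with few barcodes per bin at the far end, and calf 1 keeps more barcodes there (766) than calf 2 (158) or calf 3 (522).

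High-gene barcodes were deep. Their median was 28708 UMIs in calf 1, 31272 in calf 2 and 27294.5 in calf 3, and the comparison barcodes had medians of 10324, 6798 and 8034. The medians stood in ratios of 2.78, 4.60 and 3.40. Detected genes chose the barcodes, so these values are a description; the medians were 4548.5, 4406.5 and 4460 genes, with maxima of 7128, 6173 and 6585. More than 50000 UMIs, the study's upper UMI limit, were held by 61, 11 and 13 of them.

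Differences in depth were removed by drawing 5000 UMIs at random from every barcode of either class, with shallower barcodes left out. No high-gene barcode was lost in this step, since the shallowest held 16242 UMIs, and 88.3%, 82.6% and 89.3% of the comparison barcodes remained in calves 1, 2 and 3. At 5000 UMIs, high-gene barcodes still showed more genes, with medians of 1678, 1521 and 1682.5 against 1508, 1402 and 1549. The 50 most abundant genes took 34.2%, 39.2% and 35.4% of their UMIs against 39.6%, 42.9% and 39.8%. Both measures follow in part from the choice of barcodes by detected genes and are a description. Their median mitochondrial share was 6.25%, 8.12% and 7.93% against 5.38%, 5.59% and 5.64%, with a maximum of 21.0%.

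The keratins that chose the barcodes of both classes are given as a description. KRT15 stood lower in high-gene barcodes, at 76.6, 105 and 70.4 UMIs per 10000 in calves 1, 2 and 3 against 115, 128 and 104 in the comparison barcodes. KRT14 stood higher, at 16.5, 28.5 and 23.4 against 11.3, 13.6 and 11.8. KRT5 showed no single direction, at 44.2, 55.7 and 38.4 against 53.1, 45.8 and 41.8. The epithelial label was checked with EPCAM. At least 2 UMIs of EPCAM, an epithelial adhesion molecule that the rule did not use, were found among the 5000 UMIs in 31.2%, 16.5% and 14.2% of high-gene barcodes, in 24.7%, 19.2% and 12.9% of comparison barcodes, and in no non-epithelial barcode of any calf.

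The non-epithelial barcodes are a reference of 500 to 4000 genes with keratins under 10 per 10000 and at least 2 UMIs of PTPRC, PECAM1 or COL3A1. They numbered 50, 424 and 1006 in calves 1, 2 and 3, with median depths of 4571, 3727.5 and 4927 UMIs, and 23, 137 and 491 of them held 5000 UMIs.

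RNA of other lineages was low in high-gene barcodes. The 11 fibroblast markers summed to 2.86, 1.92 and 1.41 UMIs per 10000 in calves 1, 2 and 3, against 4.42, 4.07 and 2.97 in comparison barcodes and 47.9, 69.0 and 53.1 in non-epithelial barcodes, with 2 or 3 of the 11 at 0. The 12 immune markers summed to 0.206, 0.335 and 0.506 against 0.241, 0.389 and 0.883, and to 44.01, 39.1 and 126.5 in non-epithelial barcodes. The 11 endothelial markers summed to 0.0507, 0.0799 and 0.0810 against 0.105, 0.250 and 0.177. In each of these lists and calves the sum was lower above 4000 genes. DCN (decorin), 1 of the 11 fibroblast markers, made up most of that list's sum in high-gene and comparison barcodes. The exclusion of barcodes with a COL3A1, PTPRC or PECAM1 UMI acted on the full depth of a barcode and so reached further among deep barcodes; its part in these sums was not tested.

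Each barcode was also given a doublet score, the likeness of its profile to profiles simulated by adding pairs of barcodes of the same library. Median scores were 0.137, 0.162 and 0.123 in high-gene barcodes of calves 1, 2 and 3 against 0.0914, 0.104 and 0.0980. The highest 8% of scores of a library included 26.1%, 19.6% and 18.2% of its high-gene barcodes and 6.36%, 8.83% and 8.12% of its comparison barcodes. No barcode was removed as a doublet for the results below. A pair of keratinocytes in 1 droplet carries no marker of another lineage, and the part of such pairs in the results was not tested.

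Expression was compared on counts summed per calf and class, with the calf as a block, by the quasi-likelihood test of edgeR, with p adjusted over 11135 genes by the Benjamini-Hochberg method; the 19 genes used by the rule were not tested. Above 4000 genes, 1115 genes were higher (10.0% of those tested) and 971 lower (8.72%) at an adjusted p under 0.05. Since the classes come from the same libraries, the calf pairs them; without the block the same test called 0 genes in either direction, those of every list below included, with 540 higher and 443 lower at an unadjusted p under 0.05. The UMIs of every barcode were also split at random into 2 sets of about equal size, one to choose the barcodes and the other to measure them. With a minimum of 2743, 2746 and 2741 genes in the choosing set of calves 1, 2 and 3, 832 genes were higher and 703 lower. Without calf 3, 473 were higher and 420 lower. Without the 8% highest doublet scores of each library, 1112 were higher and 1151 lower.

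Scaling moved the balance between the directions. With library totals alone in place of TMM factors, 1821 genes were higher and 573 lower, which put 76.1% of the called genes on the higher side against 53.5%, and the median log2 difference of all tested genes moved from -0.03 to 0.10. Log2 differences below are those of the fit, and a per-calf value is a log2 ratio of counts per 1000000 UMIs (CPM) with 1 added, which lacks the TMM factors.

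The gene lists named below are described by how many of their tested members passed the test. Among all tested genes 10.0% were higher and 8.72% lower, and these are the shares to read the lists against.

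Genes of the G2 and M phases were higher in high-gene barcodes as a whole list. All 25 of 25 passed the test, with a median log2 difference of 2.00 and per-calf medians of 1.78, 2.28 and 2.38. Their summed level was 27.9 ± 15.4 UMIs per 10000 (SD, n = 3 calves) against 7.21 ± 5.27. By calf the sums were 44.6, 14.3 and 24.7 against 13.2, 3.24 and 5.19, so calf 1 was high and calf 2 low in both classes. The classes did not overlap, though calf 2 above 4000 genes lay close to calf 1 below it.

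TOP2A, the topoisomerase that untangles replicated chromosomes, reached 523.8, 132.9 and 240.2 CPM in calves 1, 2 and 3 against 134.8, 19.1 and 40.1 in comparison barcodes. Its log2 difference was 2.26 ± 0.13 (SE of the fit, n = 3 calves, adjusted p = 1.06e-09, edgeR's quasi-likelihood test). It was higher within every calf, while the ranges of the classes overlapped between calves. MKI67, the proliferation antigen, stood at 208.4, 72.2 and 148.7 CPM against 61.3, 10.6 and 27.2, without overlap. Its log2 difference was 2.10 ± 0.15 (adjusted p = 5e-09 in edgeR).

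UBE2C, which works with the anaphase-promoting complex to break down mitotic proteins, differed most among the members of the list, at 303.9, 107.6 and 198.5 CPM against 57.8, 14.6 and 24.5, a log2 difference of 2.60. CCNB1, the cyclin that drives entry into mitosis, stood at 73.4, 35.4 and 49.0 CPM against 15.3, 4.54 and 7.33, also without overlap. AURKB, a kinase of chromosome segregation, differed by 2.28 on the log2 scale. CENPF, a kinetochore protein, and HMGB2, a chromatin protein of dividing cells, had higher levels than these and differed by 1.89 and 1.12.

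S phase genes moved less and depended on the comparison. Of 23 tested, 17 were higher and 0 lower, with a median log2 difference of 0.61 and per-calf medians of 0.37, 0.97 and 1.02. PCNA, the sliding clamp of DNA replication, stood at 278.3, 83.5 and 329.1 CPM against 192.7, 75.0 and 149.3. Its log2 difference of 0.54 came mostly from calves 1 and 3, and it missed the threshold without calf 3, when 5 of the 23 genes were higher. DUT, which keeps uracil out of DNA, differed by 0.70 and RRM1, a ribonucleotide reductase subunit, by 0.88. Against comparison barcodes of 3000 to 4000 genes alone, the S phase median was -0.22 and 7 genes were lower and 0 higher.

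The share of barcodes in cycle was read from MKI67. At least 2 MKI67 UMIs of 5000 were found in 27.4% (95% confidence interval 24.3 to 30.7, exact Clopper-Pearson) of high-gene barcodes in calf 1, while calf 2 had 8.86% (4.93 to 14.4) and calf 3 had 19.3% (16.0 to 23.003). In comparison barcodes the shares were 7.31%, 1.16% and 3.101%. The share was higher above 4000 genes in 3 of 3 calves, at 18.5% ± 9.31 (SD, n = 3 calves) against 3.85% ± 3.14. An exact permutation test over 3 pairs cannot give a two-sided p under 0.25. Non-epithelial barcodes, which can also cycle, reached 0 of 23, 4 of 137 and 11 of 491, so the comparison share in calf 2 was below that of its non-epithelial barcodes. Without thinning, the shares were 72.3%, 25.3% and 49.8% against 13.4%, 1.75% and 4.84%. Intervals cover counting error only.

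**Figure D2:**
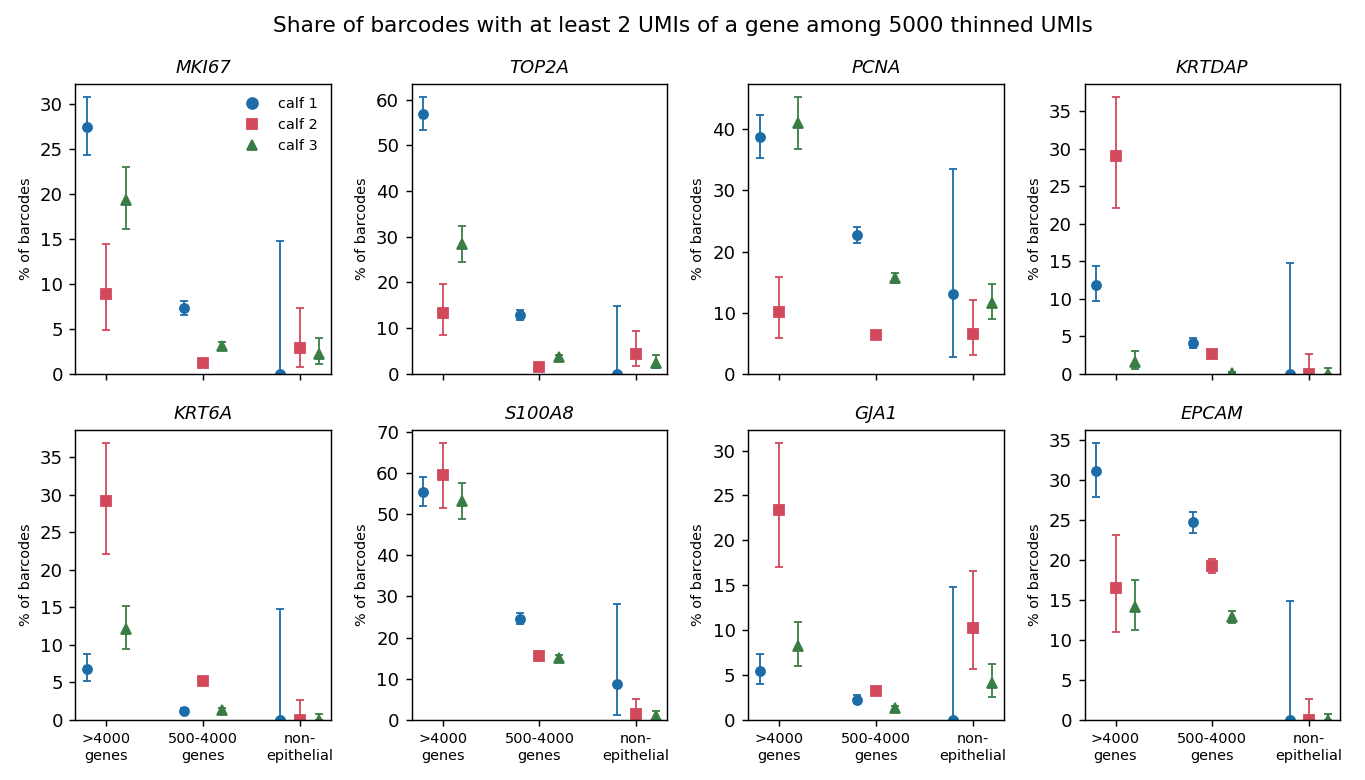
Percent of barcodes with at least 2 UMIs of each of 8 genes among 5000 thinned UMIs (vertical axes), for barcodes above 4000 genes, of 500 to 4000 genes and non-epithelial ones; points are the 3 calves and bars exact 95% intervals for counting error. The MKI67 share is 27.4%, 8.86% and 19.3% above 4000 genes against 7.31%, 1.16% and 3.101%, while the EPCAM share is lower above 4000 genes in calf 2 (16.5% against 19.2%).

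Spinous differentiation genes formed the second large group. Of 18 tested, 14 were higher and 0 lower, with a median log2 difference of 1.83, and per-calf medians of 0.69, 2.55 and 2.11. The summed level was 57.8, 113 and 44.6 UMIs per 10000 in calves 1, 2 and 3 against 38.6, 25.1 and 11.96. The sums of the classes did not overlap, but calf 1 showed the smallest rise.

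KRT6A, a keratin of suprabasal and activated keratinocytes, stood at 96.9, 853.2 and 247.1 CPM against 26.4, 106.7 and 25.2. Its log2 difference was 2.61 ± 0.18 (SE of the fit, n = 3 calves, adjusted p = 4.56e-09, edgeR's quasi-likelihood test). KRT6A was higher within each calf, with calf 1 above 4000 genes under calf 2 below it, and near-identical keratin copies may share its reads. KRTDAP, a protein secreted by differentiating keratinocytes, stood at 140.5, 526.6 and 35.6 CPM against 60.8, 63.8 and 1.76. It was higher within each calf, and the high-gene value of calf 3 lay under the comparison values of the other two.

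S100A8, an alarmin and calcium-binding protein, was found at 830.5, 1863 and 954.0 CPM against 320.8, 338.7 and 217.9, and at least 2 of its UMIs were in 55.5%, 59.5% and 53.3% of high-gene barcodes against 24.5%, 15.5% and 14.9%. These 2 sets of shares did not overlap, and non-epithelial barcodes stood at 8.70%, 1.46% and 0.815%. FABP5, which carries fatty acids in keratinocytes, differed by 1.81 on the log2 scale, at 1917, 1376 and 2252 CPM against 687.1, 282.9 and 523.8.

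WFDC18, of the whey acidic protein family, reached 498.7 CPM in calf 2 against 34.5 but 17.5 in calf 1 against 9.53. KRT4, a keratin of the upper layers of wet epithelia, was called higher at a log2 difference of 0.86, while in calf 1 it stood at 1461 CPM against 1492, and it missed the threshold in 4 of the 20 other fits, one being that without calf 2. The spinous group thus differed in size between calves, with calf 2 highest.

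**Figure D3:**
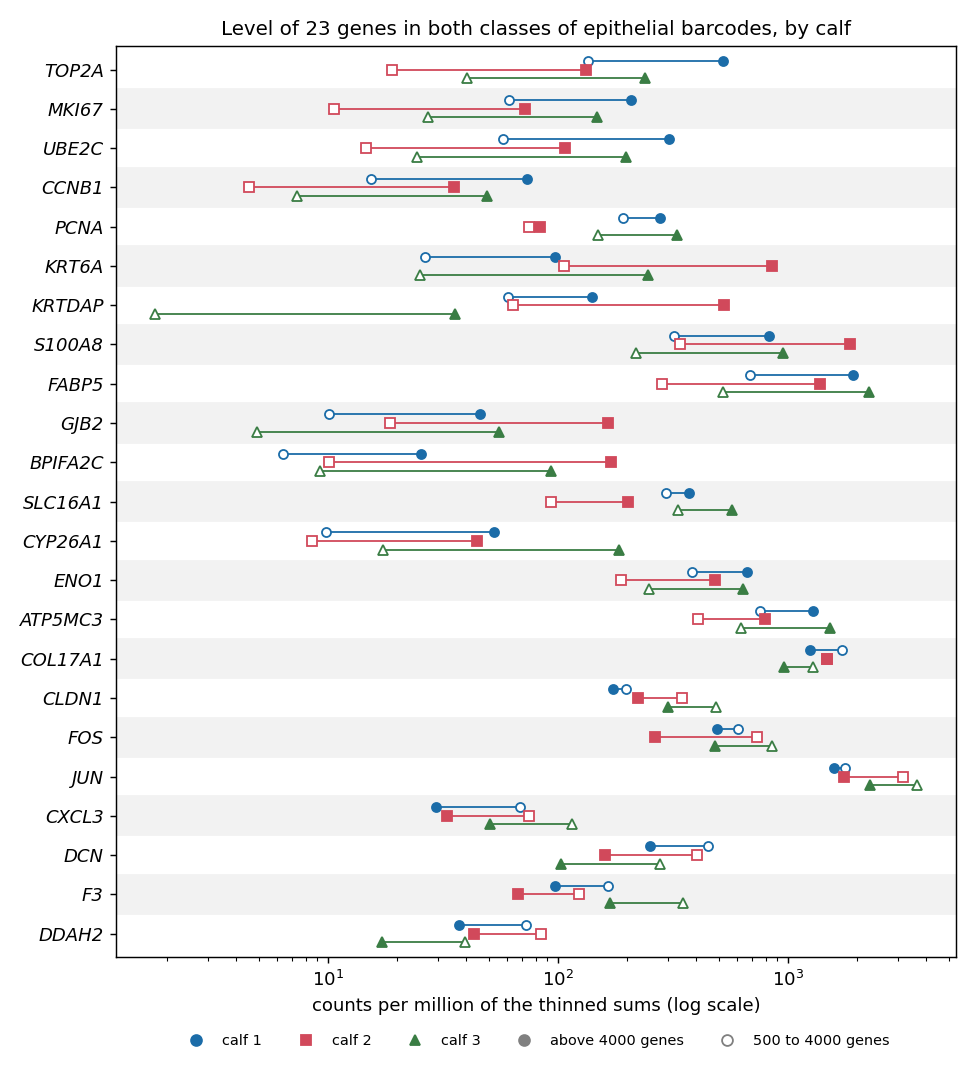
Level of 23 genes in CPM of the thinned sums (log scale), 1 marker shape and colour per calf, filled for barcodes above 4000 genes and open for barcodes of 500 to 4000 genes, joined by a line. Cell cycle and spinous genes such as MKI67 and KRT6A lie to the right above 4000 genes in every calf, CXCL3, DCN, F3 and DDAH2 lie to the left, and COL17A1 in calf 2 hardly differs (1487 against 1486).

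The 2 programmes were read barcode by barcode from sums of MKI67, TOP2A and CENPF (cycling) and of KRTDAP, KRT6A and A2ML1 (spinous), each at a minimum of 2 UMIs of 5000. Cycling barcodes made up 71.7%, 23.4% and 42.7% of high-gene barcodes in calves 1, 2 and 3, and 20.3%, 3.56% and 6.92% of comparison barcodes. Spinous barcodes made up 18.5%, 41.8% and 13.4% against 5.84%, 8.19% and 1.54%. Cycling barcodes were the larger set in calves 1 and 3 and spinous ones in calf 2.

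Both gates were passed by 111, 19 and 30 high-gene barcodes, or 14.5%, 12.03% and 5.75%, against 97, 46 and 29 comparison barcodes, or 2.37%, 0.611% and 0.400%. The product of the 2 gates' own shares gives 101.8, 15.5 and 29.9 high-gene and 48.5, 21.96 and 7.75 comparison barcodes. Neither gate was passed by 24.3%, 46.8% and 49.6% of high-gene barcodes, and the gates hold no gene of the S phase list. These remaining barcodes had medians of 30166, 30457 and 26648 UMIs in calves 1, 2 and 3, under the 32708, 35966 and 29506.5 of spinous barcodes that were not cycling. Cycling high-gene barcodes had medians of 28244, 30094 and 27269, under the remaining ones in calves 1 and 2 and over them in calf 3.

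When barcodes with any UMI of MKI67, TOP2A or CENPF among the 5000 were left out of both classes, 302 genes were higher and 177 lower. Leaving out those with any UMI of KRTDAP, KRT6A or A2ML1 as well brought this to 81 and 68. Of these, 73 and 63 were also called with all barcodes kept. S phase genes stayed higher in both fits, with 16 of 23 higher and 0 lower in each, at medians of 0.72 and 0.74. These fits hold fewer barcodes and test fewer genes. The first kept 159, 109 and 248 high-gene barcodes in calves 1, 2 and 3, and the second 128, 53 and 188. Below, fits without cycling or spinous barcodes left out every barcode with any such UMI, a wider set than the gates of 2 UMIs.

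**Figure D4:**
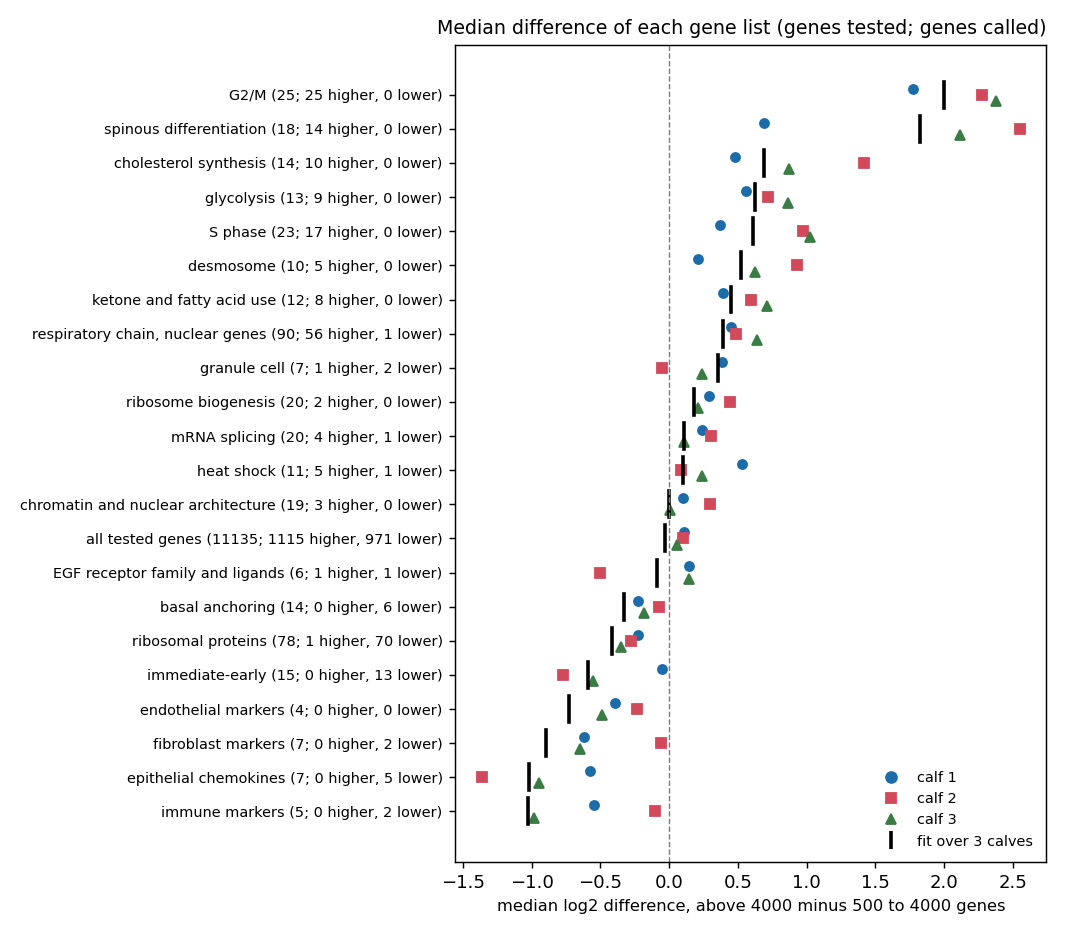
Median log2 difference of each gene list (horizontal axis), above 4000 minus 500 to 4000 genes; black bars are the fit over 3 calves with TMM factors, and points are per-calf ratios of CPM, which lack those factors. G2/M and spinous lists lie furthest to the right (2.00 and 1.83), with calf 1 the lowest point in both.

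Basal anchoring genes, which hold keratinocytes to the basement membrane, went the other way. Of 14 tested, 6 were lower and 0 higher, with a median log2 difference of -0.33 and per-calf medians of -0.23, -0.08 and -0.18. COL17A1, the hemidesmosome collagen, stood at 1244, 1487 and 964.8 CPM against 1728, 1486 and 1288, with a log2 difference of -0.44. In calf 2 its CPM values, which lack the TMM factors of the fit, hardly differed. CD44, the hyaluronan receptor, fell by 0.53 on the log2 scale. Without cycling barcodes 0 of the 14 passed the test in edgeR, with a median of -0.16, and without calf 3 the number was 3.

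Cell junction genes divided. Of 10 desmosome genes, 5 were higher and 0 lower at a median of 0.52, with JUP (plakoglobin) at a log2 difference of 0.55 and DSG3, a desmosomal cadherin, at 0.39. DSG3 missed the threshold in 11 of the 20 other fits, and without calf 3 only 1 desmosome gene was higher. Without spinous barcodes 0 of the 10 were higher and 1 was lower in edgeR, and without cycling and spinous barcodes 0 passed in either direction. Of 7 granule cell genes, 1 was higher and 2 lower. The latter were CLDN1, a tight junction claudin, at 174.2, 224.1 and 301.1 CPM against 197.5, 345.0 and 485.5, and DLK2, a relative of the Notch ligands, at 63.7, 194.9 and 162.1 against 128.4, 313.5 and 235.9.

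Genes of several metabolic lists were higher. Of 90 nuclear genes of the respiratory chain, 56 were higher and 1 lower, with a median of 0.39 and per-calf medians of 0.45, 0.48 and 0.64. Their sums were 323.9, 271.5 and 324.1 UMIs per 10000 against 244.7, 197.6 and 210.1, without overlap. ATP5MC3, a subunit of the ATP synthase ring, stood at 1289, 796.2 and 1519 CPM against 755.3, 405.7 and 623.9, and COX5B, of cytochrome c oxidase, differed by 0.45. Without calf 3, 27 of these genes were higher and 1 lower.

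Among 13 glycolysis genes, 9 were higher and 0 lower at a median of 0.62. ENO1 (enolase) stood at 665.0, 482.3 and 637.5 CPM against 385.1, 188.1 and 248.8, LDHA (lactate dehydrogenase) differed by 0.77 and ALDOA (aldolase) by 0.62. Of 14 cholesterol synthesis genes, 10 were higher and 0 lower at a median of 0.69, with CYP51A1 and IDI1, enzymes of that pathway, at 1.12 and 1.01.

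Ketone and fatty acid genes gave 8 higher and 0 lower of 12, at a median of 0.45, and 4 higher without calf 3. SLC16A1, a monocarboxylate transporter that carries ketone bodies and lactate, stood at 372.6, 202.5 and 570.5 CPM against 296.3, 93.4 and 333.0, higher within each calf while the classes overlapped between calves. Its log2 difference was 0.57, and it missed the threshold without cycling and spinous barcodes. With those barcodes left out, the respiratory chain list gave 2 higher and 0 lower of 89, cholesterol synthesis 2 higher of 13, the ketone and fatty acid list 1 higher of 11 and glycolysis 0 higher of 12 in edgeR.

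Cytoplasmic ribosomal protein genes were lower nearly throughout. Of 78 tested, 70 were lower and 1 higher, at a median of -0.42 and per-calf medians of -0.23, -0.28 and -0.35. Their sum was 3063, 3336 and 2879 UMIs per 10000 in calves 1, 2 and 3 against 3653, 4081 and 3688, without overlap. RPLP1, a stalk protein of the large subunit, stood at 15826, 19000 and 14543 CPM against 21399, 25342 and 20827, without overlap. These genes have many processed copies in the genome, so single members are uncertain. Without cycling and spinous barcodes 6 were lower and 0 higher, at a median of -0.19. With barcodes chosen and measured on separate UMIs, 70 were lower and 1 higher, at a median of -0.45. That choice also used detected genes, which depend on how evenly the RNA is spread over genes. Ribosomal protein genes held a large share of the UMIs in both classes. The part of the choice by detected genes in their fall was not tested.

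Immediate-early genes, which respond to stress and dissociation within minutes, were lower in 13 of 15 and higher in 0, at a median of -0.59. The per-calf medians, which lack the TMM factors, were -0.05, -0.77 and -0.55, with the smallest fall in calf 1. FOS stood at 493.5, 264.6 and 482.4 CPM against 607.1, 733.7 and 856.6 and did not overlap, with a log2 difference of -0.97. JUN, JUNB and IER3, the first 2 being partners of FOS, differed by -0.71, -0.79 and -0.76. Without calf 2, 8 of the 15 were lower, and the same number without calf 3 or without cycling barcodes.

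Of 7 chemokine and cytokine genes, 5 were lower and 0 higher at a median of -1.02, and 1 was lower without cycling barcodes, as was 1 of 4 tested against 3000 to 4000 genes. CXCL3, a neutrophil chemokine, stood at 29.5, 32.9 and 50.6 CPM against 68.3, 75.1 and 115.4, without overlap. Its relative GRO1 stood at 18.8, 10.1 and 21.8 against 26.2, 33.3 and 43.0, and near-identical chemokine copies may share reads.

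Heat shock genes gave 5 higher and 1 lower of 11, at a median of 0.10. HSPA8, the constitutive chaperone, differed by 0.38 and HSP90AB1 by -0.31, and their calls were lost in 4 and 6 of the 20 other fits. Of 20 ribosome biogenesis genes, 2 were higher and 0 lower, of 20 splicing genes 4 higher and 1 lower, and of 19 chromatin genes 3 higher, HMGB1 among them at 0.53. Among 6 genes of the EGF receptor family and its ligands, 1 was higher and 1 lower. AREG, a ligand, stood at 86.7, 6.33 and 54.4 CPM against 38.9, 10.0 and 34.8, so that calf 2 went against its call, which was lost in 8 of the 20 other fits, and EGFR, the receptor, at 12.5, 5.06 and 22.99 against 19.7, 10.97 and 35.5.

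Some genes outside these lists were among the largest higher differences. BPIFA2C belongs to a family of secreted lipid-binding proteins. It was the largest among called genes with a symbol, 1 direction in 3 of 3 calves and at least 50 CPM. Its log2 difference was 3.08 ± 0.23 (SE of the fit, n = 3 calves, adjusted p = 1.22e-08, edgeR's quasi-likelihood test), with per-calf values of 1.83, 3.95 and 3.20. Its levels were 25.3, 170.9 and 93.1 CPM against 6.40, 10.1 and 9.23. FABP4, a fatty acid carrier, stood at 87.7, 31.7 and 399.6 CPM against 15.3, 3.98 and 43.1, so calf 3 was high in both classes. GJB2, a connexin of suprabasal gap junctions, stood at 45.7, 165.8 and 55.6 against 10.2, 18.6 and 4.91, without overlap. CYP26A1, which breaks down retinoic acid, stood at 53.0, 44.3 and 184.7 against 9.82, 8.55 and 17.4, also without overlap. FABP4 and CYP26A1 kept their call without cycling and spinous barcodes, and BPIFA2C and GJB2 did not. C7H5orf46 stood at 12.5, 143.0 and 19.2 CPM against 7.28, 13.6 and 2.23, a log2 difference of 2.35, with the smallest rise in calf 1.

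The 12 largest lower differences of the genes named by rule were led by CXCL3 and DCN. DCN, the matrix proteoglycan decorin, stood at 251.2, 160.8 and 103.1 CPM against 450.1, 401.9 and 278.1, without overlap. Its log2 difference was -1.32 ± 0.12 (SE of the fit, n = 3 calves, adjusted p = 1.14e-07 in edgeR). MFAP2 and FBLN2, of elastic fibres, differed by -1.11 and -1.04. As DCN is a fibroblast marker, its values belong beside the fibroblast sums given above; of 7 tested fibroblast markers 2 were lower, DCN and SPARC (-1.19), and 0 higher. Of 5 immune markers 2 were lower, one being CD74 at -1.21, 0 of 4 endothelial and 0 of 2 erythroid markers passed in edgeR, and the 1 mural marker tested was lower.

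F3, tissue factor, stood at 97.1, 67.1 and 169.0 CPM against 165.4, 123.3 and 350.9 and was lower in each calf. PRODH, which breaks down proline, DDAH2, which breaks down methylated arginines, and CYBA, a subunit of NADPH oxidase, differed by -1.02, -1.17 and -1.15. CCDC3 and the growth factor IGF2 differed by -1.05 and -0.98. IFI27, an interferon-induced gene, rested on calf 3, at 85.8 CPM against 193.1, with 0 in high-gene barcodes of calf 1, and CCN2 rested on it too, at 128.4 against 289.0; both missed the threshold without calf 3.

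The limit of 4000 genes cut through a gradient. In bands of 2000 to 3000, 3000 to 4000, 4000 to 5000 and over 5000 genes, the share of barcodes with at least 2 MKI67 UMIs was 4.54%, 15.6%, 27.1% and 28.3% in calf 1. It was 1.79%, 7.49%, 8.09% and 13.6% in calf 2 and 1.71%, 11.7%, 19.2% and 20.0% in calf 3. In calves 1 and 3 most of the rise thus lay between the bands of 2000 to 3000 and 4000 to 5000 genes. In calf 2 the share rose further over 5000 genes, in a band of 22 barcodes.

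S phase sums reached their highest value just under the limit in calves 1 and 2, at 29.3 and 9.70 UMIs per 10000 for 3000 to 4000 genes against 25.6 and 9.02 for 4000 to 5000; in calf 3 the 2 bands stood at 22.1 and 22.2. Spinous sums rose on past the limit in calf 2, from 73.6 through 116.8 to 159.6 over 5000 genes, the last from 22 barcodes. In calf 1 they stood at 50.3, 60.5 and 58.4 in the same bands and in calf 3 at 26.4, 47.1 and 50.4. Immediate-early sums fell through the bands in calves 2 and 3, from 98.1 and 124.7 at 1000 to 2000 genes to 37.9 and 60.9 over 5000, and lay between 55.2 and 65.3 in calf 1.

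**Figure D5:**
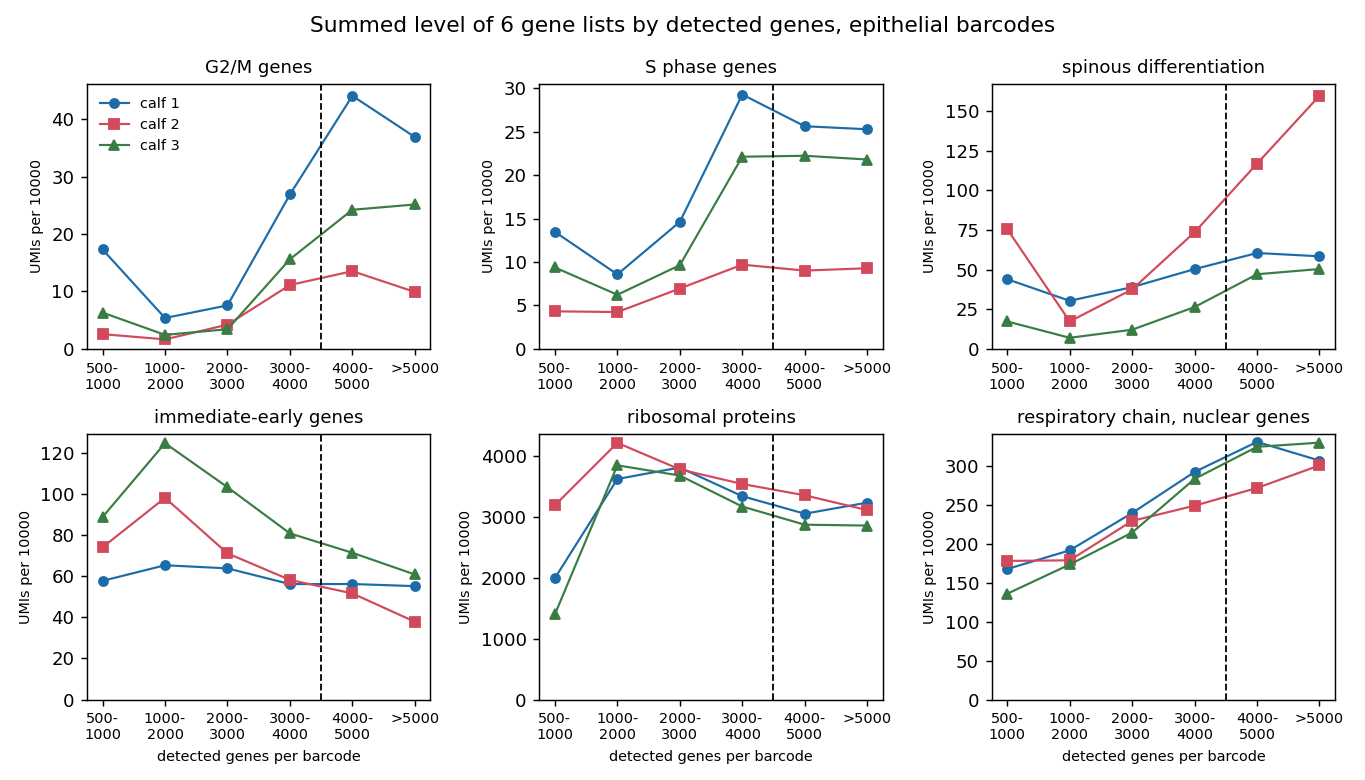
Summed level of 6 gene lists in UMIs per 10000 (vertical axes) by band of detected genes (horizontal axes), unthinned epithelial barcodes, 1 line per calf, with the dashed line at 4000 genes. From the 1000 to 2000 band to the 4000 to 5000 band respiratory chain genes rise and immediate-early genes of calves 2 and 3 fall, and the spinous line of calf 2 climbs to 159.6.

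At the edge itself, barcodes of 3901 to 4000 genes numbered 86, 24 and 70 in calves 1, 2 and 3 and those of 4001 to 4100 genes 77, 22 and 66. Their MKI67 shares were 25.6%, 12.5% and 11.4% under the limit and 16.9%, 9.09% and 21.2% above it. The G2/M sums were 40.9, 17.5 and 22.2 UMIs per 10000 under it and 38.6, 8.71 and 17.4 above it, and the spinous sums 52.4, 73.2 and 31.8 under and 64.4, 117.7 and 39.95 above. These values stand as a description, with few barcodes in calf 2.

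Against the 3000 to 4000 band alone, 266 genes were higher and 205 lower of 9301 tested, and 259 and 181 of these were also called in the wider comparison. All 25 G2/M genes remained higher, at a median log2 difference of 0.56, and 12 of 17 spinous genes, at 0.70. Of the 70 lower ribosomal protein genes 55 remained lower, with a median of -0.15 for the list.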

How the data were processed

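Single-cell libraries (10x 3' chemistry) of the rumen of 3 newborn calves, 1 per animal, were analysed. The authors deposited raw UMI counts per gene and barcode over 27270 genes, made with Cell Ranger 3.1.0 on ARS-UCD1.2, before their filters (500 to 4000 genes, at most 50000 UMIs, at most 40% mitochondrial UMIs, then DoubletFinder). Barcodes were classed by the rule given in the report and thinned without replacement to 5000 UMIs. Thinned counts were summed per calf and class and tested with edgeR 4.0.16 (R 4.3.3; quasi-likelihood, TMM factors, filterByExpr, calf as block, Benjamini-Hochberg adjusted p under 0.05). SE is that of the fitted log2 difference, from dispersions moderated over genes, and is not the spread of the per-calf values. Levels per 10000 UMIs in list sums of the 2 classes use thinned counts; those of other lineages and of bands of detected genes use all UMIs. The calf is the shared animal, so the classes are paired. DESeq2 1.42.0 was an alternative. Doublet scores came from Scrublet in scanpy 1.11.5; DoubletFinder was not run.

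Members and gene lists were chosen with earlier results of these data known. Named genes were the 12 largest differences in each direction (adjusted p under 0.05, same direction in 3 of 3 calves, at least 50 CPM, a gene symbol), up to 4 of the most abundant genes in each list, and the markers; not all are printed, and some results are not reported here. A2ML1 only defines a gate. The test was tested on simulated counts for this comparison. Other settings, listed in the closing section, changed a single choice at a time, apart from those named here. Choosing and measuring barcodes on separate UMIs applied the rule's other conditions to the choosing UMIs alone. Its gene minimum, 2743, 2746 and 2741 in calves 1, 2 and 3, was set to keep about as many high-gene barcodes, and the measured depth was 2500 UMIs. A further setting left out cycling and spinous barcodes together. Settings without cycling or spinous barcodes removed every barcode with any UMI of the gate genes.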

Additional observations from a re-analysis of the deposited data

How the results depend on the processing

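Leaving out the calf block gave 0 higher and 0 lower genes in edgeR; with the pairing kept, leaving out each calf gave 473 to 1111 higher and 420 to 964 lower. DESeq2 called 709 higher and 447 lower, library totals alone 1821 and 573, thinning to 2000 UMIs 622 lower and no thinning 1503 lower. Without cycling barcodes 302 were higher and 177 lower, without spinous barcodes 674 and 585, without both 81 and 68; against 3000 to 4000 genes 266 and 205. The settings without spinous barcodes, without cycling and spinous barcodes together, and without the 8% highest doublet scores were chosen after seeing the data. The last of these gave 1112 higher and 1151 lower. The planned removal of called doublets was not run, since the automatic threshold marked 0, 1 and 1 barcodes.

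The G2/M median was 0.56 against 3000 to 4000 genes and 1.27 at 10000 UMIs. The S phase median reversed to -0.22 against 3000 to 4000 genes (DUT -0.044, PCNA -0.23), was 0.087 at 10000 UMIs and ranged from 0.40 to 0.99 without 1 calf. The spinous median was 0.70 against 3000 to 4000 genes. The basal anchoring median was -0.45 with barcodes chosen and measured on separate UMIs (2500 measured), -0.11 against 3000 to 4000 genes, -0.19 with library totals, -0.21 at 10000 UMIs, -0.16 without cycling barcodes and -0.061 without cycling and spinous barcodes.

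The mean difference of the MKI67 share was 14.7 percentage points; it was 4.02 at 2000 UMIs, 21.1 at 10000, 42.5 without thinning, 6.97 against 3000 to 4000 genes, 28.0 at 1 UMI, 6.22 at 3 UMIs and 5.65 with barcodes chosen and measured on separate UMIs, at 2500 UMIs. Of 60 genes named with a test, 58 kept their direction in the 20 other fits that could test them, and 24 also their call in all but the fit without the block. The causes of these changes were not tested, except that fewer calves, barcodes or UMIs entered some fits. Depth limits what 158 barcodes of calf 2 can show.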
